A study of Mus musculus with 20 samples.

Results

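Gene expression of immortalized mouse embryo fibroblasts (iMEFs) was set against that of primary mouse embryo fibroblasts (MEFs) at 0 and 24 h after a pulse of 4-hydroxytamoxifen (4-HT). The comparison used 8 of the 20 arrays of the series, 4 of iMEFs and 4 of MEFs. They were chosen by their labels, as all arrays of either cell type taken at 0 or 24 h, and they form 4 pairs of the same Ubf genotype and time. The iMEF lines were Ubf fl/fl and Ubf wt/wt, and the MEF lines were likewise Ubf fl/fl and Ubf wt/wt. Every line was Er-cre +/+, so it carried the tamoxifen-inducible Cre recombinase, and came from E14.5 embryos, and the iMEF lines had been transfected with the SV40 large T and small t antigens. Per the study's methods, 50 nM 4-HT was given for 4 h, which activates the recombinase and deletes floxed Ubf exons. Whether the 0 h arrays were taken before or after this pulse is not given in the sources used here. The study had 1 array for each line and time. The 0 and 24 h arrays of a line are therefore the only repeats of it, and there were 2 lines of each cell type. P-values of the difference between cell types measure the spread between the 4 pairs. Those of the comparison of genotypes measure only the spread between times within a genotype. The immortalization itself, time in culture and the choice of line or clone cannot be told apart in this design. Levels are log2 values, so a difference of 1 is a doubling.

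MEFs are fibroblasts taken from minced embryos, and they divide for a limited number of passages before they stop. SV40 large T antigen binds and inactivates p53, the transcription factor that answers DNA damage by raising cell cycle inhibitors and death genes. It also binds pRb and its relatives p107 and p130, which otherwise hold the E2F factors and keep genes of DNA replication silent until the cell enters S phase. Small t antigen binds protein phosphatase 2A. Primary cultures made from whole embryos can hold other cells beside fibroblasts, such as macrophages.

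The Ubtf gene, which codes for UBF and is the target of the floxed allele, was at 10.43, 10.62, 10.41 and 10.45 in iMEFs, against 10.65, 10.55, 10.75 and 10.60 in MEFs. These values, and all values of single arrays below, are given for Ubf fl/fl at 0 h, Ubf fl/fl at 24 h, Ubf wt/wt at 0 h and Ubf wt/wt at 24 h. The levels lay close together, with a mean difference of -0.16 ± 0.11 (iMEF minus MEF, SE over 4 pairs, adjusted p = 0.214). Whether this probe set lies in the deleted exons is not given in the sources used here, so it checks neither label.

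Of 14848 genes kept, 61.5% differed between iMEFs and MEFs by limma on the 4 paired differences (Benjamini-Hochberg adjusted p under 0.05). In iMEFs 4637 genes (31.2%) were higher and 4499 (30.3%) were lower. Large changes were more often falls. By at least 1, 423 genes (2.85%) were higher and 1781 (12.0%) lower, in all 14.8%. Arrays correlated at 0.934 to 0.990 among iMEFs, at 0.976 to 0.995 among MEFs and at 0.824 to 0.942 between the cell types. The 4 paired differences correlated with each other at 0.746 to 0.930 across genes, which are not independent replicates. The median difference over all genes was 0.10. When each array's gene probe sets were scaled to the same median it was 0.24, and 6803 genes were then called higher and 3766 lower (64.4% of calls higher, against 50.8%). By at least 1, 684 were then higher and 1407 lower, and with quantile scaling 672 were higher and 1450 lower. Without the Ubf fl/fl 0 h pair 2415 genes were higher, without the Ubf wt/wt 24 h pair 3004.

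Some measures moved with the differences over all genes. Differences fell with the length of the gene, and the medians of 5 equal groups from short to long were 0.29, 0.22, 0.09, -0.15 and -0.29. This order held in each of the 4 pairs. Differences were also smallest in the Ubf fl/fl 24 h pair, where their interquartile range was 0.61, against 1.0, 0.84 and 1.1 in the other pairs. Of the 1781 genes lower by at least 1, 1222 (68.6%) had their smallest difference in that pair, as had 48.7% of all genes. With the trend on gene length subtracted 5046 genes were higher and 3932 lower, and without the Ubf fl/fl 24 h pair 5009 and 4720. The cause of either pattern was not tested.

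The largest rise was that of Cda, the cytidine deaminase of pyrimidine salvage. It was at 11.98, 11.75, 11.85 and 11.57 in iMEFs, against 7.54, 7.92, 7.90 and 8.11 in MEFs, 15.2-fold higher (3.92 ± 0.16, adjusted p = 2.19e-05). Itga3, the laminin-binding integrin α3, was at 10.75, 10.74, 10.73 and 10.48 in iMEFs, against 7.90, 8.05, 8.28 and 8.08 in MEFs, a difference of 2.59 ± 0.11 (adjusted p = 2.51e-05). Genes were named here only if every iMEF array lay above every MEF array, so the gap between the groups is part of the choice. The other large rises were Rab3b (2.69), a GTPase of vesicle exocytosis, Msln (2.56), the surface protein mesothelin, and Reep6 (2.52), Cdkn2a (2.49), Angptl7 (2.48), Spint1 (2.44), Trpv4 (2.42) and Hid1 (2.41). Spint1 is a membrane inhibitor of serine proteases and Trpv4 a calcium channel. Angptl7 had the widest spread of them (SE 0.52).

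The largest falls were of macrophage and matrix genes. Lyz2, the lysozyme of macrophages, was at 4.64, 4.68, 5.74 and 5.53 in iMEFs, against 12.38, 12.27, 11.68 and 11.92 in MEFs, a difference of -6.92 ± 0.30 (adjusted p = 2.51e-05). C1qb of complement C1q (-5.36), C3ar1, the receptor of the complement fragment C3a (-4.80), and Fcer1g, a subunit of Fc receptors (-4.62), are genes of the same cells. Among matrix genes, Dcn (decorin, -5.29), Lum (lumican, -4.98), Aspn (asporin, -4.66) and Dpt (dermatopontin, -4.64) are proteins that bind collagen fibrils. Lgr5, a receptor for R-spondins, was at 6.97, 7.17, 6.28 and 6.22 in iMEFs, against 11.83, 11.22, 11.81 and 11.87 in MEFs (-5.02 ± 0.25, adjusted p = 3.95e-05). Peg3, an imprinted zinc finger gene, fell by 4.57. Here too genes were named only if the groups were apart. Lyz2, C1qb, Lum, C3ar1 and Dpt did not exceed the array's 40th percentile on any iMEF array, so their iMEF levels are near the low end of the scale and the size and rank of their falls are uncertain.

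**Figure D1:**
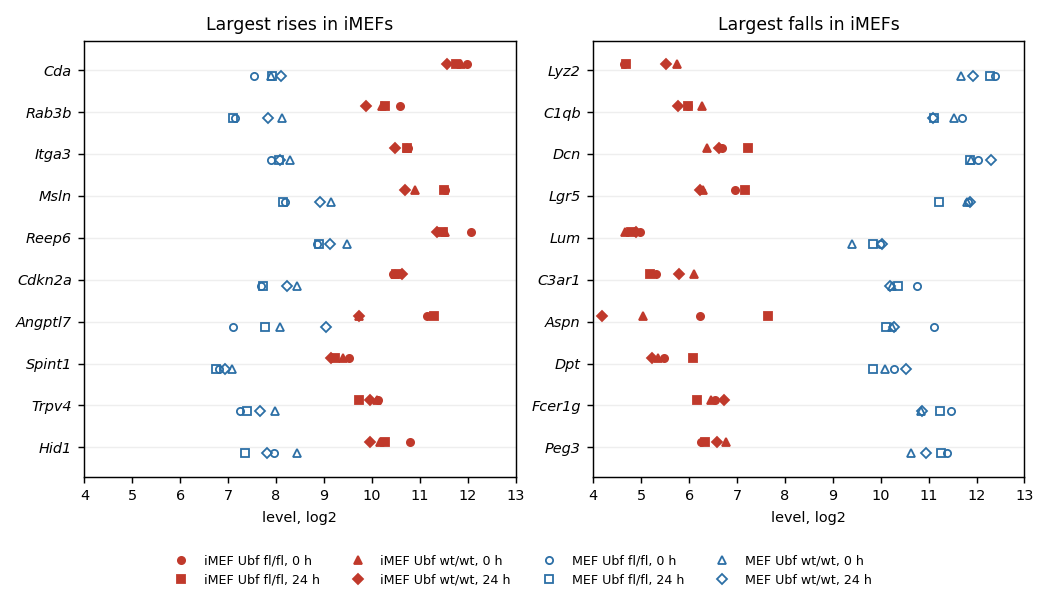
Levels (log2, horizontal axis) of the 10 largest rises (left panel) and falls (right panel), 1 gene a row, with filled red points for the 4 iMEF arrays, open blue points for the 4 MEF arrays and a marker shape for each genotype and time. The groups are apart in every row, by 3.92 on average for Cda and by 6.92 for Lyz2.

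Genes of DNA replication and nucleotide synthesis were mostly higher in iMEFs. Of 47 measured members 26 were higher (31.2% of all genes were) and 3 lower, with a median difference of 0.47. Cdt1, which loads the MCM helicase at origins, was at 11.73, 11.28, 11.63 and 11.53 in iMEFs, against 9.99, 10.00, 10.22 and 9.94 in MEFs (1.5 ± 0.11, adjusted p = 0.000153). Pold1, the catalytic subunit of DNA polymerase δ, was at 10.55, 10.25, 10.53 and 10.58 in iMEFs, against 9.07, 9.14, 9.43 and 8.93 in MEFs (1.33 ± 0.13, adjusted p = 0.000334). Neither gene's groups overlapped, and 23 of the 47 genes had all iMEF arrays above all MEF arrays, while 0 had all below (24.1% and 22.4% of all genes). Mcm2 (1.21) and Mcm5 (1.16) of the helicase and Chaf1b (1.2), a subunit of the chromatin assembly factor, rose by similar amounts. The 3 that fell were Pola1 (-0.83) of the primase complex, Dbf4 (-0.83), the activator of the Cdc7 kinase, and Rrm2 (-0.39), a subunit of ribonucleotide reductase. Their groups overlapped, and without the Ubf fl/fl 0 h pair the adjusted p was 0.0603 for Pola1 and 0.0817 for Rrm2, and without the Ubf wt/wt 24 h pair it was 0.0552 for Pola1. With the trend on gene length subtracted the difference of Pola1 was -0.45 (adjusted p = 0.0568). The list's median differed between pairs, at 0.67 and 0.78 in the Ubf fl/fl pairs and 0.29 and 0.14 in the Ubf wt/wt pairs, a difference that was not tested for the list.

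The E2F motif is shown because E2F factors bind it before many of these genes. RefSeq promoters (GRCm38.p6, 250 bases before to 50 after each start) were searched on either strand for TTTGGCGC, TTTCCCGC, TTTGCCGC and TTTCGCGC, and matches may overlap. Of 28 promoters of 22 of the risen replication genes 10 held a match (35.7%), as did 6 of 16 promoters of list members that were not called (37.5%) 744 of 32851 promoters in all (2.26%) and 3.56% of those of all genes measured. The share was thus alike in members that rose and members that were not called. In windows of 60 bases, with each match in capitals, the sequences were as follows.
Cdt1, chr8:122568005-122568064, + strand: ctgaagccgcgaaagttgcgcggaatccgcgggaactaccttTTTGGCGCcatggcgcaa
Pold1, chr7:44548766-44548825, - strand: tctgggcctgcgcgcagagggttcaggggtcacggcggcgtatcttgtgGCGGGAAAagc
Mcm5, chr8:75109330-75109389, + strand: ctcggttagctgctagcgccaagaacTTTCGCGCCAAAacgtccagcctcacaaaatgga
Rfc3, chr5:151651185-151651244, - strand: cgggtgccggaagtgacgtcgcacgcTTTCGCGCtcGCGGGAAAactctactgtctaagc
Mcm3, chr1:20820263-20820322, - strand: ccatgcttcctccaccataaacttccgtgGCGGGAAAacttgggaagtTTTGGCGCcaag
Mcm6, chr1:128359782-128359841, - strand: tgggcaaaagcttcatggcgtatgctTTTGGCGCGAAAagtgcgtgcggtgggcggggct
The windows of Mcm5, Rfc3, Mcm3 and Mcm6 hold 2 matches each, which overlap in Mcm5 and Mcm6. These genes rose by 1.16 (Mcm5), 1.08 (Rfc3, a subunit of the clamp loader), 0.82 (Mcm3) and 0.47 (Mcm6). A match is a description of letters and shows no binding in these cells.

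The E2F factors themselves moved both ways. E2f1, an activator, was at 10.54, 10.38, 10.50 and 10.47 in iMEFs, against 9.51, 9.65, 9.84 and 9.52 in MEFs (0.84 ± 0.11, adjusted p = 0.000826). The repressor E2f6 was at 8.13, 8.30, 8.0 and 8.06 in iMEFs, against 9.63, 9.41, 9.17 and 9.62 in MEFs (-1.33 ± 0.12, adjusted p = 0.000267). The groups were apart for both genes. E2f4 (0.44), which works with the Rb relatives, was also higher, as were E2f7 (0.52), E2f2 (0.39) and the partner Tfdp2 (0.38). E2f5 (-0.84) and the activator E2f3 (-0.61) were lower. In all 5 of 10 members rose and 3 fell, and E2f8 (0.14 ± 0.17) and Tfdp1 (0.16 ± 0.10) were not called. Without the Ubf fl/fl 0 h pair the calls of E2f7 (adjusted p = 0.0677), E2f3 (0.0537) and Tfdp2 (0.0528) were lost, and without the Ubf wt/wt 0 h pair those of E2f3 (0.0519), E2f2 (0.0591) and Tfdp2 (0.0728). E2f2 also lost its call without the Ubf wt/wt 24 h pair (0.0721). With the trend on gene length subtracted the difference of E2f3 was -0.28 (adjusted p = 0.0965).

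Genes of mitosis and cytokinesis moved both ways, and the share that rose was near that of all genes. Of 41 members 14 were higher (34.1%, against 31.2% of all genes) and 18 lower (43.9%, against 30.3%). The median difference was 0.06, while the mean over the list was negative at 0 h (-0.36) and at 24 h (-0.25). The list's median was 0.18 and 0.21 in the Ubf fl/fl pairs and -0.15 and -0.39 in the Ubf wt/wt pairs, a difference that was not tested for the list. Espl1, the protease separase, was at 9.97, 9.92, 9.80 and 9.72 in iMEFs, against 8.47, 8.62, 8.78 and 8.44 in MEFs (1.28 ± 0.11, adjusted p = 0.000261). Mybl2 (1.19) and Foxm1 (0.82), transcription factors of the G2 phase, also rose, with no overlap of groups. Hmmr, a spindle protein, was at 5.70, 7.45, 5.16 and 5.18 in iMEFs, against 8.16, 8.21, 7.08 and 7.88 in MEFs (-1.96 ± 0.29, adjusted p = 0.00149). The iMEF array of Ubf fl/fl at 24 h stood well above the other iMEF arrays and within the range of MEFs. The checkpoint kinase Bub1 (-1.95), the spindle motor Kif11 (-1.83) and the condensin subunit Ncapg (-1.72) had the same pattern. The groups overlapped in every 1 of the 18 genes called lower, since 0 members had all iMEF arrays below all MEF arrays (22.4% of all genes had). All iMEF arrays lay above all MEF arrays in 11 of the 41 (24.1% of all genes). For 18 of the 41 members (43.9%) the smallest difference was in the Ubf fl/fl 24 h pair, near the 48.7% of all genes. The genes called lower had a median length of 31973 bases and those called higher 11672 bases, against 36349 and 12589 bases over all genes.

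The cell cycle homology region (CHR), to which regulators of mitotic genes bind, was looked for as TTTGAA on either strand of the same promoters. It was in 8 of 11 promoters of the mitosis genes that rose (72.7%), in 14 of 19 of those that fell (73.7%) in 4 of 6 of those not called (66.7%), in 17.9% of all promoters and in 12.0% of those of all genes measured. The largest changes with a match are shown for each direction, with the match nearest the start site in windows of 60 bases. In Kif11 the match is on the other strand and reads TTCAAA.
Espl1, chr15:102296240-102296299, + strand: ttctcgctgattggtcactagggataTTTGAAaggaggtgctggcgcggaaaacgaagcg
Cdca8, chr4:124936871-124936930, - strand: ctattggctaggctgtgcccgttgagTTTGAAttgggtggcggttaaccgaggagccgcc
Racgap1, chr15:99651618-99651677, - strand: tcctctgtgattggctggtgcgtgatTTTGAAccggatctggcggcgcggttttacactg
Hmmr, chr11:40733396-40733455, - strand: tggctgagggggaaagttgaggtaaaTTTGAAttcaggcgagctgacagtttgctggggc
Kif11, chr19:37376337-37376396, + strand: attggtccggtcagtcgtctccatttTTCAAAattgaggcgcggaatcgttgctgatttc
Ncapg, chr5:45669869-45669928, + strand: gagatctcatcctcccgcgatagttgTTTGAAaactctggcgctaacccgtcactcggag
Genes that moved in opposite directions thus held the same letters at about the same share. Cdca8 (0.68), a subunit of the chromosomal passenger complex, and Racgap1 (0.57), a GTPase activator of cytokinesis, were among those that rose.

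The difference of proliferation genes was small at 0 and 24 h beside later times. Over 20 arrays, 276 genes (1.86%) had a larger difference at 48 to 96 h than at 0 and 24 h and 71 (0.478%) a smaller or more negative one. Among them were 40 of the 41 mitosis genes and 30 of the 47 replication genes, all with a larger difference. The mean level over mitosis genes at 0, 24, 48, 72 and 96 h was 9.15, 9.46, 9.29, 9.10 and 9.14 in iMEFs, against 9.51, 9.71, 8.07, 7.46 and 7.20 in MEFs. The iMEF level changed little, and the MEF level was lower from 48 h on. The polo-like kinase Plk1 had a difference of 0.54 ± 0.10 at 0 and 24 h, which was larger by 2.63 ± 0.31 at 48 to 96 h (adjusted p = 0.000332). Likewise the difference was larger by 2.51 for Aurkb, a mitotic kinase, by 2.44 for Mcm5, by 3.0 for H2ac4 and by 2.97 for H2bc3, which code for replication-dependent histones. E2f8, not called at 0 and 24 h, had a difference larger by 1.64 later. Myc, the growth-promoting factor, was at 10.47, 10.19, 10.92 and 10.75 in iMEFs, against 10.54, 10.24, 10.92 and 10.73 in MEFs (-0.03 ± 0.09, adjusted p = 0.801), and its later difference was larger by 1.07 (adjusted p = 0.00953). The opposite change was seen for the protease Mmp13 (-2.80) and the acute phase protein Saa3 (-2.77), whose levels in MEFs were higher later.

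Repair genes of homologous recombination and the Fanconi pathway were higher in 9 of 22 members (40.9%, against 31.2% of all genes) and lower in 1. Fanca, of the Fanconi core complex, was at 9.73, 9.85, 9.66 and 9.60 in iMEFs, against 8.31, 8.49, 8.57 and 8.44 in MEFs (1.26 ± 0.10, adjusted p = 0.00022). The other large rises were Rad54l (0.95), a motor protein of strand exchange, Fancg (0.87) and Mus81 (0.85), a nuclease subunit. Fancb, on the X chromosome, was the gene that fell (-1.28 ± 0.14, adjusted p = 0.000487). The median over the list was 0.24, and 0.21 without the 1 member that passed the filter through the iMEF arrays alone.

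Genes known as p53 targets were mostly lower in iMEFs. Of 34 measured members 20 fell (30.3% of all genes did) and 2 rose, with a median difference of -0.55. The median was -0.57, -0.69, -0.44 and -0.50 in the 4 pairs, so it was alike in all. Ccng1, cyclin G1, was at 9.56, 10.19, 9.68 and 9.75 in iMEFs, against 12.28, 12.52, 11.82 and 12.46 in MEFs, 5.58-fold lower (-2.48 ± 0.13, adjusted p = 4.18e-05). Mdm2, the ubiquitin ligase that degrades p53, was at 7.93, 8.96, 7.82 and 8.30 in iMEFs, against 9.92, 10.55, 9.56 and 10.46 in MEFs (-1.87 ± 0.12, adjusted p = 9.31e-05). All iMEF arrays lay below all MEF arrays for both genes and for 20 of the 34 members (22.4% of all genes). Eda2r (-2.36), a death receptor, Trp53inp1 (-2.19), which binds p53, Polk (-2.06), a translesion polymerase, Zmat3 (-1.36) and Aen (-1.24), an exonuclease of apoptosis, fell as well. Perp, a membrane protein of desmosomes and a mediator of apoptosis, was at 9.26, 9.26, 8.89 and 8.79 in iMEFs, against 7.65, 7.78, 7.95 and 7.94 in MEFs (1.22 ± 0.15, adjusted p = 0.000791). It was the only p53 target that rose by at least 1. The other that rose, Abhd4 (0.27, adjusted p = 0.0415), lost its call without any 1 of the 4 pairs (adjusted p from 0.0556 to 0.174). Bbc3, which codes for the death protein PUMA, had 8.15, 7.79, 8.35 and 8.26 in iMEFs, against 7.79, 7.97, 8.18 and 7.83 in MEFs, and was not called (0.19 ± 0.13). Cdkn1a, Bax and Gdf15 of this list were not analysed here.

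The CDK inhibitors differed from gene to gene. Cdkn2a, which codes for p16 and p19 ARF, was at 10.45, 10.49, 10.48 and 10.62 in iMEFs, against 7.69, 7.73, 8.44 and 8.22 in MEFs, 5.61-fold higher (2.49 ± 0.14, adjusted p = 6.04e-05). The 4 iMEF arrays lay close together, and all above the MEF arrays. Cdkn2c (0.89 ± 0.14, adjusted p = 0.00202) and Cdkn2d (0.69 ± 0.12, adjusted p = 0.00292), which code for p18 and p19, were also higher. Cdkn1c, the imprinted gene of p57, was at 8.5, 8.01, 8.49 and 8.54 in iMEFs, against 10.04, 9.31, 10.16 and 9.61 in MEFs (-1.40 ± 0.12, adjusted p = 0.000278). Cdkn2b (-0.09 ± 0.10) and Cdkn1b (0.27 ± 0.10), which code for p15 and p27, were not called. Without the Ubf fl/fl 24 h pair Cdkn1b was called higher (adjusted p = 0.0318). In the Rb family, Rb1 was at 7.5, 8.44, 6.91 and 6.63 in iMEFs, against 8.5, 8.66, 8.04 and 8.37 in MEFs (-1.02 ± 0.22, adjusted p = 0.0068), with the Ubf fl/fl 24 h array within the range of MEFs. Rbl2 (-0.41 ± 0.23) was not called over 4 pairs and was called lower without that pair (adjusted p = 0.00621). Rbl1 (0.02 ± 0.16) was not called.

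**Figure D2:**
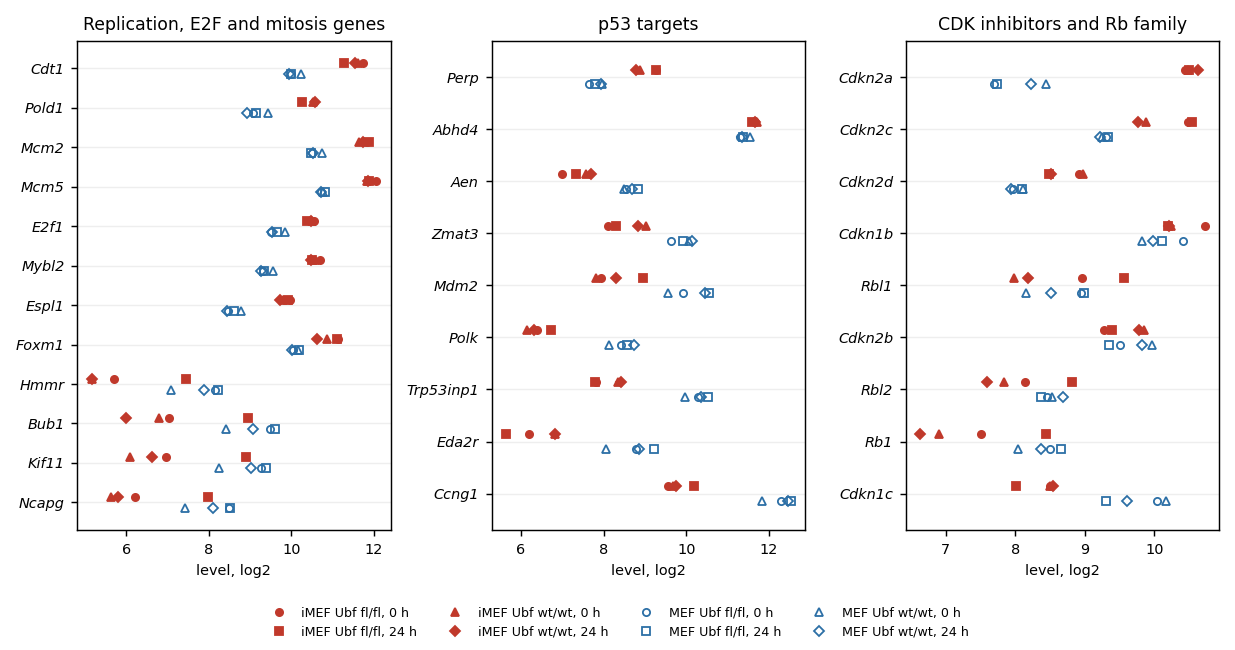
Levels (log2) of replication, E2F and mitosis genes (left panel), p53 targets (middle) and CDK inhibitors with the Rb family (right), 1 gene a row, with filled red points for the 4 iMEF arrays, open blue points for the 4 MEF arrays and a marker shape for each genotype and time. In Hmmr, Bub1, Kif11 and Ncapg the iMEF Ubf fl/fl 24 h array (filled square) lies nearest the MEF arrays, while in Ccng1 and Cdkn2a the groups are apart.

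Genes of the extracellular matrix were more often lower than higher in iMEFs. Of 23 collagens 13 fell (56.5%, against 30.3% of all genes) and 2 rose, with a median of -0.50. Of 28 other matrix proteins 20 fell (71.4%) and 1 rose (median -0.93). Of 20 matrix proteases and their inhibitors 16 fell and 0 rose (median -0.60). In each of these 2 lists 1 member passed the filter through the MEF arrays alone, which fixes its direction. Of the other 27 matrix proteins 19 fell (median -0.92), and of the other 19 proteases and inhibitors 15 fell (median -0.58). Postn, periostin, was at 7.41, 8.70, 7.07 and 7.34 in iMEFs, against 12.19, 11.86, 11.76 and 12.02 in MEFs, 20.1-fold lower (-4.33 ± 0.27, adjusted p = 7.96e-05). Vcan, the proteoglycan versican, was at 6.90, 7.80, 7.13 and 7.53 in iMEFs, against 11.40, 11.62, 11.23 and 11.89 in MEFs (-4.20 ± 0.13, adjusted p = 1.07e-05). Not all matrix genes took part. The fibrillar collagen Col1a1 was at 12.52, 12.67, 12.63 and 12.72 in iMEFs, against 12.78, 12.74, 12.95 and 12.79 in MEFs, and was not called (-0.18 ± 0.10, adjusted p = 0.141), whereas Col3a1 (-1.81) and Col12a1 (-2.99), a collagen of fibril surfaces, fell. Col6a3 fell by 2.11 and Col8a1 by 1.87. Loxl1, a crosslinking enzyme, was at 11.86, 11.84, 12.18 and 11.96 in iMEFs, against 11.82, 11.78, 12.20 and 11.99 in MEFs (0.01 ± 0.09). Ctsk (-3.65), the collagen-cleaving cathepsin K, Mmp3 (-2.71), a stromelysin, and Adamts5 (-1.96), an aggrecanase, fell. Collagen genes are long (median 114353 bases, against 20662 over all genes). Over the settings described at the end, which include the trend on gene length subtracted, the median of the collagens ran from -0.64 to -0.20. Whether length causes their falls was not tested.

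Markers of fibroblasts were kept to different degrees. Vim, vimentin, was at 13.67, 13.64, 13.63 and 13.57 in iMEFs, against 13.75, 13.74, 13.68 and 13.77 in MEFs (-0.11 ± 0.09, adjusted p = 0.324). Of the 12 markers 10 fell and 0 rose, with a median of -1.26. Of the 10 markers that exceeded the 40th percentile in both cell types 8 fell, with a median of -0.86. Thy1 was at 9.32, 9.14, 10.51 and 10.21 in iMEFs, against 12.55, 12.45, 12.61 and 12.47 in MEFs (-2.73 ± 0.22, adjusted p = 0.000218). Pdgfra, a receptor of platelet-derived growth factor, fell by 2.16 and Pdgfrb by 0.84. Lum and Fap did not exceed the 40th percentile on any iMEF array, while the other 10 markers exceeded it on every iMEF array. Most fibroblast markers were thus detected in iMEFs, though mostly at lower levels than in MEFs. The label of these cells was not tested further.

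Macrophage markers stood out in the primary cells. Of 18 members kept, 8 passed the filter through the MEF arrays alone, which fixes their direction. The other 10 were all called lower in iMEFs, by -1.61 to -4.62 with a median of -2.66 (-3.0 over all 18). The mean level over the list ran between 6.05 and 6.42 on iMEF arrays and between 9.23 and 9.71 on MEF arrays. Lyz2 and Adgre1 (F4/80) were among the 8, whereas 17 of the 18 exceeded the array's 40th percentile on every MEF array. Adgre1 was at 4.96, 4.94, 5.19 and 5.26 in iMEFs, against 9.03, 9.07, 8.41 and 9.25 in MEFs (-3.85 ± 0.16, adjusted p = 2.46e-05). Laptm5 (-4.23), a lysosomal protein of blood cells, Cd53 (-3.70) and C1qc (-3.58) fell. In bulk RNA fewer cells of a type and less RNA per cell cannot be told apart. The falls of Lyz2, C1qb, C3ar1 and Fcer1g among the largest are part of this, and the part of such cells in other falls was not tested.

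**Figure D3:**
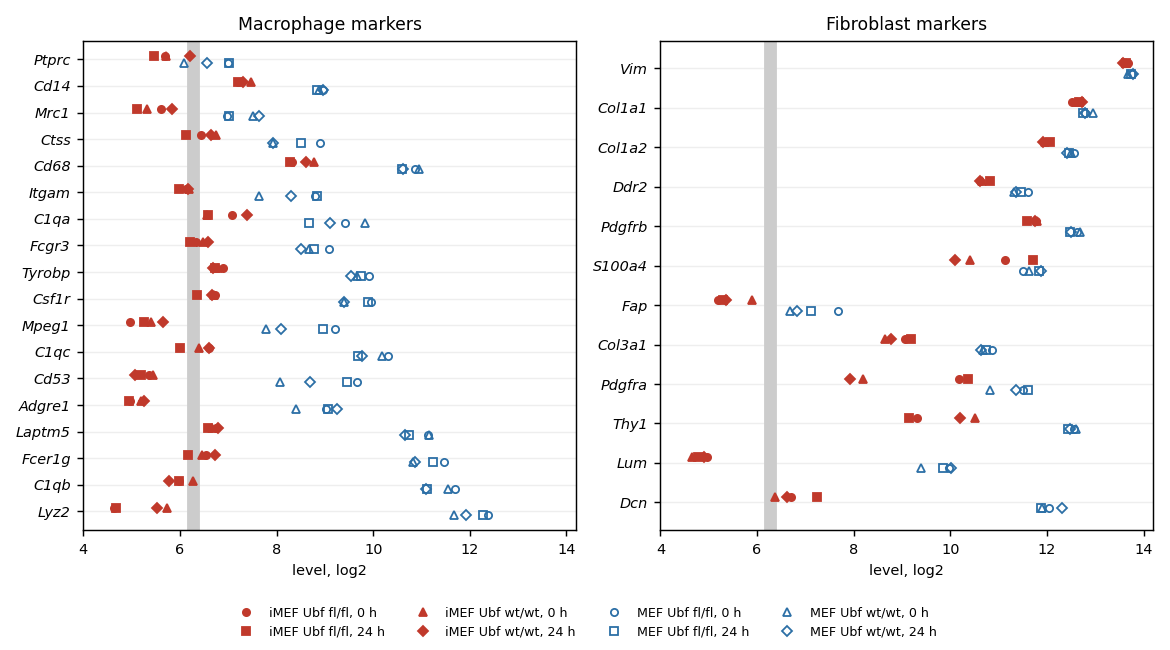
Levels (log2) of macrophage markers (left panel) and fibroblast markers (right panel), 1 gene a row, with filled red points for the 4 iMEF arrays, open blue points for the 4 MEF arrays and a grey band for the range of the 40th percentile over the 8 arrays. Macrophage markers lie near or under the band in most rows of iMEFs and above it in MEFs, and Vim, Col1a1 and Col1a2 lie far above it in all arrays.

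Chemokines and inflammatory genes fell in 15 of 22 members (68.2%, against 30.3% of all genes) and rose in 5 (22.7%, against 31.2%). The median was -1.07. Of the 15, 3 passed the filter through the MEF arrays alone, and the median over the other 19 members was -1.04. The monocyte attractant Ccl2 was at 8.60, 10.02, 9.05 and 9.73 in iMEFs, against 11.25, 11.75, 11.05 and 12.02 in MEFs (-2.17 ± 0.16, adjusted p = 0.000138). Ccl7 (-2.21) and Ccl9 (-2.49) fell by similar amounts, and Saa3 by 2.46. Ccl5, RANTES, moved the other way, at 10.61, 11.38, 10.94 and 11.24 in iMEFs, against 9.0, 9.23, 8.33 and 9.02 in MEFs (2.15 ± 0.16, adjusted p = 0.000161). Cx3cl1, fractalkine, rose by 0.88 and Nfkbia, the inhibitor of NF-κB, by 0.49. Macrophage markers moved with this list by -3.0, and macrophages make several of these chemokines. Their part in the result was not tested.

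The IGF system and imprinted genes were among the lists with the largest falls. Of 18 members 14 fell (77.8%, against 30.3% of all genes) and 1 rose, with a median of -1.86. Igf2, the fetal growth factor, was at 9.73, 9.55, 9.33 and 9.33 in iMEFs, against 13.06, 12.87, 12.87 and 12.85 in MEFs, 10.7-fold lower (-3.42 ± 0.10, adjusted p = 1.06e-05). The IGF-binding proteins Igfbp3 (-4.25) and Igfbp5 (-3.89) fell too, and the imprinted genes Peg3 (-4.57), Mest (-3.56), Ndn (-2.93) and Plagl1 (-2.46) with them. Igfbp2 was at 10.84, 10.71, 11.74 and 11.70 in iMEFs, against 9.49, 9.06, 10.69 and 10.16 in MEFs, the 1 member that rose (1.40 ± 0.12, adjusted p = 0.000275). Dlk1 (-0.43 ± 0.19), Igf1r (-0.24 ± 0.10) and Igfbp4 (-0.10 ± 0.22) were not called. Mest and Ndn went apart between the lines, as given with the genotypes below.

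Transcription factors of mesenchyme fell in 14 of 33 members (42.4%, against 30.3% of all genes) and rose in 9 (27.3%, against 31.2%). Of the 33, 1 passed the filter through the MEF arrays alone and 1 through the iMEF arrays alone, which fixes their direction. Of the other 31 members 13 fell and 8 rose. Foxf1, a factor of lateral mesoderm, was at 10.59, 10.25, 10.21 and 9.91 in iMEFs, against 8.36, 8.25, 8.28 and 8.22 in MEFs (1.96 ± 0.11, adjusted p = 6.2e-05). Foxd1 (1.71), Pitx1 (1.49), a factor of hindlimb, and Foxf2 (1.39) rose as well. Ebf1 was at 6.98, 7.39, 8.29 and 7.90 in iMEFs, against 10.59, 10.28, 10.33 and 10.53 in MEFs (-2.79 ± 0.23, adjusted p = 0.000223). Zeb2 (-2.22), Zeb1 (-1.05) and Snai2 (-1.70), repressors of E-cadherin, and Prrx1 (-1.13) of limb mesenchyme fell. Among the Hox genes, which mark position along the body, 8 of 36 fell (22.2%) and 7 rose (19.4%), both below the shares over all genes, and the 3 largest falls were neighbours in the HoxC cluster. Hoxc8 was at 7.52, 7.30, 7.90 and 8.29 in iMEFs, against 10.84, 10.81, 10.87 and 10.92 in MEFs (-3.11 ± 0.16, adjusted p = 3.9e-05). Hoxc6 fell by 2.30 and Hoxc5 by 2.27, while Hoxd12 rose by 1.11.

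Contractile genes changed less. Of 19 members 7 fell (36.8%, against 30.3% of all genes) and 3 rose (15.8%, against 31.2%). The median was -0.20. Acta2, smooth muscle actin, was at 13.14, 13.12, 13.30 and 13.24 in iMEFs, against 13.49, 13.54, 13.50 and 13.54 in MEFs (-0.32 ± 0.10, adjusted p = 0.0245). Cald1, caldesmon, fell by 1.52, and Mrtfa, the actin-sensing coactivator of SRF, rose by 0.89.

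RNA polymerase I (RPI) transcribes the ribosomal RNA genes, and its factors and those of ribosome assembly were examined because UBF acts on them. Of 13 measured factors of RPI 5 fell (38.5%, against 30.3% of all genes) and 3 rose (23.1%, against 31.2%). The median was -0.22. Taf1d, a subunit of the promoter factor SL1, was at 12.48, 12.08, 12.35 and 12.11 in iMEFs, against 10.77, 10.82, 11.07 and 10.79 in MEFs (1.39 ± 0.11, adjusted p = 0.000211). Polr1c (0.63), a subunit shared with RNA polymerase III, rose, and Taf1b (-0.95) and Taf1a (-0.76), also of SL1, fell. Of 39 ribosome biogenesis genes 21 fell (53.8%) and 8 rose (20.5%), with a median of -0.35. Npm1, nucleophosmin, was at 8.67, 10.28, 8.51 and 7.96 in iMEFs, against 11.10, 11.12, 10.53 and 11.13 in MEFs (-2.11 ± 0.33, adjusted p = 0.0017), and Ncl, nucleolin, was at 7.76, 9.91, 8.31 and 7.76 in iMEFs, against 10.70, 10.77, 10.01 and 10.55 in MEFs (-2.07 ± 0.33, adjusted p = 0.00188). In both the iMEF array of Ubf fl/fl at 24 h was the highest of the iMEFs and close to the MEF level. For 28 of the 39 members (71.8%, against 48.7% of all genes) the smallest difference was in that pair. Over the settings described at the end, which include leaving out each pair in turn, the list's median ran from -0.38 to -0.20. Why that array stood apart was not tested. Bop1 (0.67), of the PeBoW complex, and Tcof1 (0.56), treacle, rose, the second losing its call without the Ubf fl/fl 0 h pair (adjusted p = 0.0567). Ribosomal protein genes had a median of -0.01, with 12 of 53 lower (22.6%) and 6 higher (11.3%), both below the shares over all genes. In the Myc and Max network Mga (-1.54) and Max (-0.48) fell and Mxd3 (0.66) was the largest of 5 rises.

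Cholesterol synthesis genes fell in 11 of 20 members (55%, against 30.3% of all genes) and rose in 1, with a median of -0.68. Idi1, an isomerase of the isoprenoid branch, was at 8.02, 9.57, 7.0 and 6.42 in iMEFs, against 10.69, 10.59, 9.80 and 10.54 in MEFs (-2.65 ± 0.42, adjusted p = 0.00184), again with the highest iMEF value in Ubf fl/fl at 24 h. Hsd17b7 fell by 2.02 and Sc5d by 1.56, both late enzymes of the pathway. The smallest difference was in the Ubf fl/fl 24 h pair for 13 of the 20 members (65.0%, against 48.7% of all genes). Fdps, farnesyl diphosphate synthase, was at 12.07, 12.0, 11.91 and 11.99 in iMEFs, against 12.06, 11.95, 12.07 and 11.96 in MEFs (-0.02 ± 0.10). Among 16 glycolysis genes 3 fell (18.8%) and 2 rose (12.5%), both below the shares over all genes, with a median of -0.05. Pgk1 (-0.66), phosphoglycerate kinase, was the largest fall and Pfkm (0.66), phosphofructokinase, the larger rise.

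**Figure D4:**
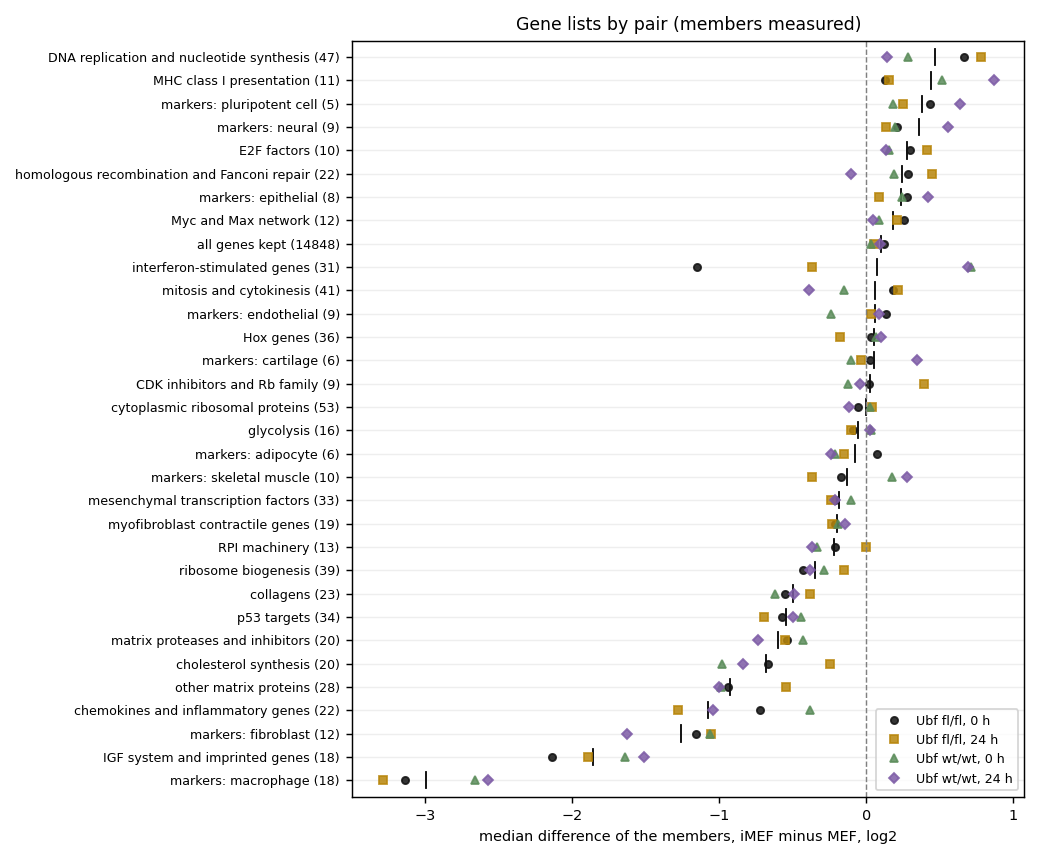
Median difference (iMEF minus MEF, log2, horizontal axis) over the measured members of each gene list, 1 list a row with the number of members, a vertical tick for the median of the members' mean differences and a point for each of the 4 pairs. Macrophage markers (-3.0) and the IGF and imprinted list (-1.86) lie lowest, DNA replication (0.47) lies highest, and the pairs of interferon-stimulated genes lie on either side of 0. The macrophage row includes 8 markers that passed the filter through the MEF arrays alone. The median of the other 10 was -2.66.

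The effect was compared between the Ubf fl/fl and the Ubf wt/wt lines, which carry different embryos' cells as well as different alleles, so line and allele cannot be told apart. It differed for 120 genes (0.808%), with 35 higher and 85 lower in the Ubf fl/fl pairs than in the Ubf wt/wt pairs. The p-values of this comparison measure the spread between the 0 and 24 h pairs within a genotype, and not that between lines. Interferon-stimulated genes, which answer viral RNA and DNA, were prominent. Their pair medians were -1.15 and -0.37 in the Ubf fl/fl pairs and 0.71 and 0.69 in the Ubf wt/wt pairs, and 9 of 31 members differed between the genotypes, all lower in fl/fl. Trim30a was at 6.59, 7.55, 8.20 and 9.26 in iMEFs, against 10.07, 9.63, 7.19 and 8.32 in MEFs. It was thus lower in fl/fl iMEFs than in fl/fl MEFs and higher in wt/wt iMEFs than in wt/wt MEFs (fl/fl minus wt/wt -3.76 ± 0.42, adjusted p = 0.0241). Oas2, a sensor of double-stranded RNA, was at 7.83, 8.37, 9.88 and 10.42 in iMEFs, against 8.0, 7.80, 7.12 and 7.20 in MEFs (fl/fl minus wt/wt -2.79 ± 0.30, adjusted p = 0.0222). Oas1a (-2.33) and the factor Irf7 (-2.07) differed in the same way. The immunoproteasome gene Psmb8, at 8.16, 8.05, 9.90 and 9.91 in iMEFs, against 8.19, 8.0, 7.70 and 7.54 in MEFs, was alike in the fl/fl lines and higher in wt/wt iMEFs than in wt/wt MEFs (fl/fl minus wt/wt -2.27 ± 0.18, adjusted p = 0.0122). Over all 4 pairs 6 of 31 interferon-stimulated genes were called higher (19.4%) and 8 lower (25.8%), with a median of 0.07. Both shares are below those over all genes (31.2% and 30.3%). Of the 8 called lower, 1 passed the filter through the MEF arrays alone, which fixes its direction. Of the other 30 members 6 were called higher and 7 lower, with a median of 0.13. Eif2ak2, the kinase PKR, fell by 1.63. Of MHC class I presentation genes 6 of 11 were called higher (54.5%) and 1 lower (9.1%), with a median of 0.44. The pair medians were 0.12 and 0.16 in the Ubf fl/fl pairs and 0.52 and 0.87 in the Ubf wt/wt pairs. Of the 11 members 3 differed between the genotypes, all lower in fl/fl.

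Single genes marked the lines. AI506816, with 11.08, 11.34, 11.54 and 11.20 in iMEFs, against 6.14, 6.56, 11.44 and 11.49 in MEFs, was low in the Ubf fl/fl MEFs alone (fl/fl minus wt/wt 4.95 ± 0.21, adjusted p = 0.00151). Cthrc1, a secreted protein of collagen matrix, was at 7.59, 7.33, 10.56 and 10.43 in iMEFs, against 10.39, 10.08, 9.81 and 9.72 in MEFs (fl/fl minus wt/wt -3.50 ± 0.18, adjusted p = 0.00151). Mest was at 9.55, 9.57, 7.18 and 7.18 in iMEFs, against 12.37, 11.66, 11.90 and 11.80 in MEFs, so the fall was larger in the wt/wt lines (2.21), and that of Ndn was larger in the fl/fl lines (-2.35), as was that of Hoxc6 (-1.68). Y-linked genes differed too. Eif2s3y was at 4.38, 4.97, 4.22 and 4.27 in iMEFs, against 6.76, 6.41, 3.86 and 4.04 in MEFs (fl/fl minus wt/wt -2.20), and Uty at 5.13, 5.36, 5.31 and 5.36 in iMEFs, against 6.48, 6.55, 4.32 and 4.41 in MEFs (-2.24). They were highest in the Ubf fl/fl MEFs, the only arrays where they exceeded the 40th percentile. Eif2s3y and Uty thus passed the filter through these arrays alone, which fixes the direction of their difference between genotypes. Xist, which is expressed from an inactive X chromosome, was at 8.40, 8.86, 8.26 and 8.37 in iMEFs, against 9.86, 9.64, 9.61 and 9.78 in MEFs. The sex of the embryos is not given in the labels.

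A cluster of microRNA precursors on chromosome 12 held all 6 precursors whose effect differed between the genotypes. It holds 12 measured precursors between positions 109712508 and 109743236 (GRCm38.p6), in the imprinted region that also holds Dlk1 and Meg3. All 12 had a lower effect in the Ubf fl/fl pairs, as had 82 of all 89 precursors, with a median of -1.13 (fl/fl minus wt/wt), against -0.28 over all precursors. Another cluster of the same chromosome, between positions 109571990 and 109592915, holds 6 measured precursors, Mir673 to Mir127. Of these 0 differed between the genotypes, and their median was -0.30. Mir382 was at 5.12, 4.29, 8.81 and 8.23 in iMEFs, against 8.28, 7.63, 8.37 and 7.63 in MEFs (fl/fl minus wt/wt -3.77, adjusted p = 0.00151). The Ubf fl/fl iMEF arrays were low and the other arrays alike. Mir300 (-2.63), Mir323 (-2.56), Mir377 (-2.41) and Mir134 (-2.22) followed, and DQ267102 (-4.13) had the same pattern. Mir382, Mir300, Mir323 and Mir377 lay under the array's 40th percentile on the Ubf fl/fl iMEF arrays, so the size of their differences is uncertain. Meg3, the long non-coding RNA of the region, was at 7.24, 7.29, 8.5 and 8.39 in iMEFs, against 10.22, 9.62, 9.90 and 9.61 in MEFs (-1.98 ± 0.28, adjusted p = 0.00123). The array measures precursors, and the mature forms from RefSeq (GRCm38.p6) are shown with the seed, bases 2 to 8, in capitals.
mmu-miR-382-5p: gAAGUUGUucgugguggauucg
mmu-miR-300-3p: uAUGCAAGggcaagcucucuuc
mmu-miR-323-3p: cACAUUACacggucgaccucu
mmu-miR-377-3p: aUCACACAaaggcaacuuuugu
mmu-miR-134-5p: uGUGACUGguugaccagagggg
No 2 of these 5 share a seed. Over all 89 precursors measured, 51 were higher in iMEFs and 1 lower (median 0.37), where 31.2% of all genes were higher and 30.3% lower. The largest rise was that of Mir18, of the miR-17 to miR-92 cluster, at 8.22, 7.10, 9.12 and 9.26 in iMEFs, against 6.16, 6.37, 6.73 and 6.26 in MEFs (2.05 ± 0.32, adjusted p = 0.00186). Precursors are short, and the shortest group of genes had a median difference of 0.29. The part of length was not tested.
mmu-miR-18a-5p: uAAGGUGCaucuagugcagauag

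**Figure D5:**
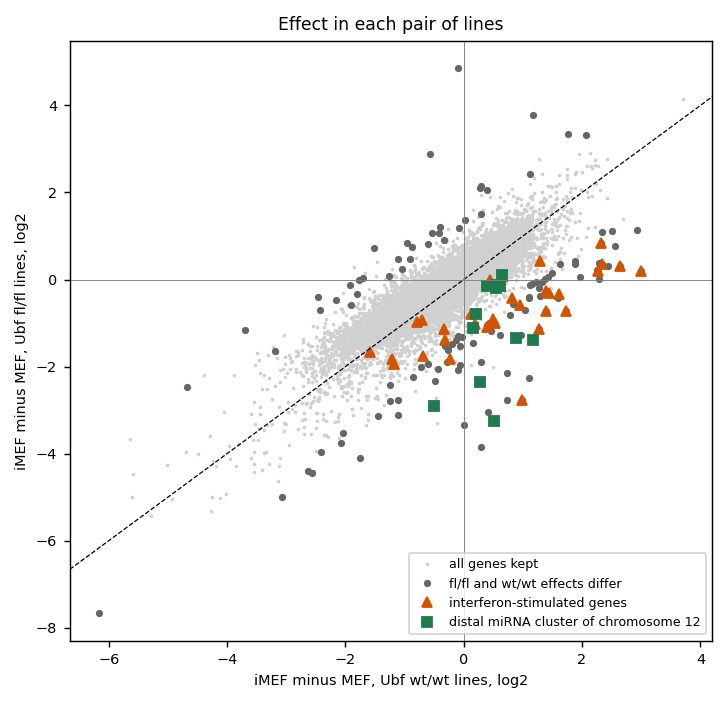
Mean difference (iMEF minus MEF, log2) in the Ubf fl/fl lines (vertical axis) against that in the Ubf wt/wt lines (horizontal axis), 1 point a gene, with genes whose effect differed between genotypes in dark grey, interferon-stimulated genes as triangles, the microRNA cluster as squares and a dashed line of equal effects. Interferon-stimulated genes and the 12 precursors lie mostly under the line.

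Between 0 and 24 h the effect differed for 0 genes by limma with adjustment, while 106 (0.714%) had an unadjusted p under 0.05. Markers of other cell types moved gene by gene. Of 9 neural markers 5 rose, of 5 pluripotent cell markers 4 and of 8 epithelial markers 4 (31.2% of all genes did), with Krt19 (1.65) the largest epithelial rise, and Cdh1, E-cadherin, was at 7.08, 6.95, 7.06 and 6.95 in iMEFs, against 6.70, 6.47, 6.75 and 6.47 in MEFs (0.41). Flt1, a receptor of VEGF, was the largest of 3 endothelial falls (-2.71), and Eng, endoglin, fell by 1.94. Stmn2, a tubulin-binding protein of neurons, rose by 1.81, and Lpl, lipoprotein lipase, fell by 2.88. Lpl did not exceed the 40th percentile on any iMEF array. Without the Ubf fl/fl 0 h pair the calls of all 4 pluripotent cell markers that rose were lost. Their adjusted p was then 0.0603 for Sall4, 0.0665 for Lin28a, 0.0888 for Dppa5a and 0.124 for Esrrb. The neural Elavl3 (0.0859) and Sox2 (0.0978) and the epithelial Cldn4 (0.0982) lost their calls likewise. Of the 8 neural markers that exceeded the 40th percentile in both cell types 4 rose. Medians were 0.24 for epithelial, 0.06 for endothelial, 0.36 for neural and -0.13 for skeletal muscle markers. They were 0.05 for cartilage, -0.08 for adipocyte and 0.38 for pluripotent cell markers, against 0.10 over all genes. Without members that passed the filter through 1 cell type alone, medians were -0.08 for endothelial, 0.28 for neural and 0.17 for adipocyte markers.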

How the data were processed

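Total RNA of mouse fibroblasts was hybridised to Affymetrix gene arrays. The deposited values are log2 levels that the authors made with Affymetrix Power Tools 1.14.4 (RMA, per the labels), which leaves no measure of depth. The number of arrays limits the precision. Probe annotation was that of Mouse Gene 1.0 ST, while the study's methods name 2.0 ST. Of 35556 probe sets 21789 had 1 gene symbol, 1621 several and 12146 none listed. Each of 19938 genes was represented by its brightest probe set (highest mean level), and 14848 passed a filter (above the 40th percentile of the array on at least 2 of 8 arrays). Of the probe sets, 701 held values identical to those of another, so such genes cannot be told apart. Differences, iMEF minus MEF within genotype and time, were fitted with limma 3.58.1 in R 4.3.3 (lmFit, eBayes) and adjusted by Benjamini-Hochberg at 0.05 over all 14848 genes. Pairs came from the labelled genotype and time. The later times used all 10 pairs of the 20 arrays with a genotype term. Scripts were tested on simulated data. Named genes were the 10 largest rises and 10 largest falls with groups apart (small RNAs, predicted genes, RIKEN clones and olfactory or vomeronasal receptors left out), up to 4 called members of each of 31 lists in each direction, all E2F factors, CDK inhibitors and Rb family members, Ubtf, Mdm2 and Myc, and the 5 largest called differences between genotypes or times. Other genes in the text were chosen after their values were seen. The members and lists were chosen with earlier results of these data known. Gene length as a trend and the call at a difference of at least 1 were chosen after seeing the data. Sequences came from RefSeq tables (GRCm38.p6).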

Additional observations from a re-analysis of the deposited data

Results flagged for a closer look

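Of 416 groups of 4 arrays examined, for the named genes and the list means, 19 held an array far from the other 3. Chance alone gives about 1 in 20 groups. On the iMEF array of Ubf fl/fl at 24 h these were Pold1 (10.25, others 10.53 to 10.58), Fancb (6.24, others 5.2 to 5.35), Cdkn1c (8.01, others 8.49 to 8.54), Col12a1 (10.22, others 8.84 to 9.0), Ddr2 (10.82, others 10.62 to 10.65), Cald1 (10.76, others 9.44 to 9.61) and the mean over ribosome biogenesis genes (9.28, others 8.80 to 8.87). On the other iMEF arrays they were E2f2 (7.85) and Cdkn1b (10.73) in Ubf fl/fl at 0 h and Itga3 (10.48) in Ubf wt/wt at 24 h. Among MEF arrays, Ubf wt/wt at 0 h stood apart for E2f4 (10.49), Zeb2 (9.02), Taf1d (11.07), Npm1 (10.53) and Idi1 (9.80). Ubf fl/fl MEFs stood apart at 0 h for Racgap1 (10.91) and Igf2 (13.06) and at 24 h for Lgr5 (11.22), and Ubf wt/wt MEFs at 24 h for the mean over matrix proteases (10.29, others 10.13 to 10.14).

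The difference between iMEFs and MEFs was itself different between genotypes (fl/fl minus wt/wt, limma with adjustment) for AI506816 (4.95), Mest (2.21), DQ267102 (-4.13), Mir382 (-3.77), Trim30a (-3.76), Cthrc1 (-3.50), Oas2 (-2.79), Mir300 (-2.63), Mir323 (-2.56), Mir377 (-2.41), Ndn (-2.35), Oas1a (-2.33), Psmb8 (-2.27), Uty (-2.24), Mir134 (-2.22), Eif2s3y (-2.20), Irf7 (-2.07) and Hoxc6 (-1.68). Between times (48 to 96 h minus 0 and 24 h) it was different for H2ac4 (3.0), H2bc3 (2.97), Plk1 (2.63), Aurkb (2.51), Mcm5 (2.44), E2f8 (1.64), Myc (1.07), Saa3 (-2.77) and Mmp13 (-2.80). Of the genes named for genotype, Uty and Eif2s3y passed the filter through the Ubf fl/fl MEF arrays alone.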

How the results depend on the processing

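No called named gene changed sign, while 10 named genes that were not called did, and 2 of all genes called with a difference of at least 1 did when all probe sets of a gene were averaged. The median changed sign in at least 1 setting for 11 of 31 lists. It ran from -0.26 to 0.24 for mitosis, -0.78 to 0.67 for interferon-stimulated genes, -0.13 to 0.24 for CDK inhibitors and the Rb family, -1.94 to 0.20 for endothelial markers and -0.20 to 0.14 for ribosomal proteins. The others were glycolysis, Hox, contractile genes and adipocyte, cartilage and skeletal muscle markers. Over all genes it ran from -0.02 to 0.24. Against 9136 calls, 4637 of them higher, line means paired by genotype gave 2748 higher and 3824 lower, so that falls were then the more frequent. Unpaired line means gave 3663 calls, 1276 higher and 2387 lower, and the 0 h arrays alone gave 2680 higher. The 24 h arrays alone gave 3269 calls, 889 higher and 2380 lower, and the Ubf fl/fl lines alone 5641 calls, 2381 higher. These settings test fewer samples. With limma's trend and robust options 730 genes differed between genotypes, against 120, and 7 between 0 and 24 h, against 0. Leaving out 1 pair at a time gave 5970 to 9729 calls, 2415 to 5009 higher and 3555 to 4720 lower, the lowest without the Ubf fl/fl 0 h pair. Without the pairing as a replicate block, 4262 genes were higher and 4183 lower, and with the line as a random block 4794 and 4543. With quantile scaling 5900 were higher and 3963 lower, and with the trend on gene length subtracted 5046 and 3932, with 18 of the named calls lost. Of 205 named genes 192 were called, and 147 of these kept the call without any 1 pair. The number of arrays and the 2 lines of each cell type limit all results.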
